A study of Homo sapiens with 6 samples.

Results

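The genes of the G1/S transition and of DNA replication were compared between K562 cells carrying wild-type SF3B1 and K562 cells carrying the SF3B1 K700E substitution. The 41 genes were chosen by name as replication and G1/S genes, and all 41 were found by symbol among the 62111 gene IDs of both expression tables. By role they comprised 8 licensing and helicase genes, 3 nucleotide supply genes, 10 polymerase, clamp and fork genes, 6 repair genes, 9 histone supply and chromatin genes, and 5 cyclin, E2F and ubiquitin genes. K562 is an established human leukemia line with erythroid features, and SF3B1 is a core subunit of the spliceosome that recognises the intron branch point. K700E is the most frequent SF3B1 hotspot substitution in blood cancers. RNA sequencing covered 6 libraries, 3 labelled genotype SF3B1-wt (WT) and 3 labelled SF3B1-K700E (K700E), with no other treatment named. How the substitution was introduced, and whether each genotype was a clone, is not given in the sources used here. The labels do not tell whether the 3 libraries of a genotype are independent cultures, and a p-value here measures the spread between libraries, which may be technical.

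Before S phase, origins of replication are licensed by loading of the MCM helicase, and at S phase entry CDC45 and the GINS complex turn that helicase into an active fork motor. Polymerases, the sliding clamp and its loader, deoxynucleotide synthesis and new histones then have to be supplied together. Many of the genes involved are transcribed under E2F factors around the G1/S boundary, so their RNA is known as a readout of cycling cells. K562 cells proliferate continuously, and the levels of these genes here ran from low, as for CCNE2, to high, as for PCNA.

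Levels are given as TPM, reads scaled by gene length and to a sum of 1000000 per library. Differences are K700E minus WT on the log2(TPM + 1) scale, with the standard error (SE) and the Benjamini-Hochberg adjusted p of limma over the 15493 genes whose mean over all libraries reached 1 TPM. All 41 replication genes passed that filter. Depth ran from 104642332 to 136588117 recovered reads per library. All 10 erythroid genes checked, including the globins HBG1 and HBZ, exceeded 1 TPM on average, whereas the B-cell marker MS4A1 was 0 in 5 of 6 libraries and the granulocyte enzyme MPO did not exceed 0.028 TPM in any library. The median gene was 0.13 higher in K700E on the log2 scale, and this shift was 0.01 after trimmed-mean (TMM) scaling, so differences are also read relative to the median gene. The WT libraries did not stand as 3 equally distant points. The level of WT replicate 3 was approximated across genes by a weighted mean of 42% of WT replicate 1 and 58% of WT replicate 2 with a residual SD of 0.16 on the log2 scale, against 0.34 to 0.40 when each K700E library was approximated from the remaining pair. Results are therefore also given without WT replicate 3.

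No replication gene passed an adjusted p of 0.05, against 1.38% of all genes tested (214 genes, of which 178, or 1.15% of those tested, were higher and 36, or 0.232%, were lower in K700E). With a correction of each library for the GC content of genes, 282 genes of the table were higher and 200 lower. Of the 41, 38 (92.7%) had a positive difference, beside 69.3% of all genes, and 28 lay above the median gene. Their median difference was 0.23, beside 0.13 for all genes, which is 0.10 relative to the median gene. That relative median was -0.006 without WT replicate 2, 0.056 without WT replicate 3 and 0.199 without WT replicate 1, so its sign rested on WT replicate 2. Individual differences ran from -0.34 for NASP to 0.73 for CDCA7. At an unadjusted p under 0.05, 8 genes (19.5%) were higher and 1 (2.44%) was lower, beside 13% and 3.52% of all genes. In 11 genes (26.8%) every K700E library lay above every WT library, beside 19.0% of all genes, and in 1 gene (2.44%) every K700E library lay below, beside 4.99%. The 11 were MCM4, GINS2, GMNN, RRM2, PCNA, RFC2, RPA2, POLD3, UNG, CHAF1B and CCNE2, and the 1 was NASP. After TMM scaling the separated genes numbered 6 higher (14.6%, background 12.1%) and 1 lower (background 9.19%). After each library was corrected for GC content they numbered 7 higher (17.1%, background 15.3%) and 1 lower (background 13.7%). Without WT replicate 3, 11 genes lay above and 1 below, beside 20.7% and 5.6% of all genes, and each of the 41 differences kept its sign. MCM4, RRM2, RPA2 and CCNE2 above, and NASP below, were separated on all 3 scales (as deposited, TMM and GC-corrected). On the corrected scales the share of separated genes was near the background, and it is not read as a result about replication genes as a list. In bulk RNA, a different share of cells in S phase and a different amount of RNA per cell cannot be told apart.

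**Figure D1:**
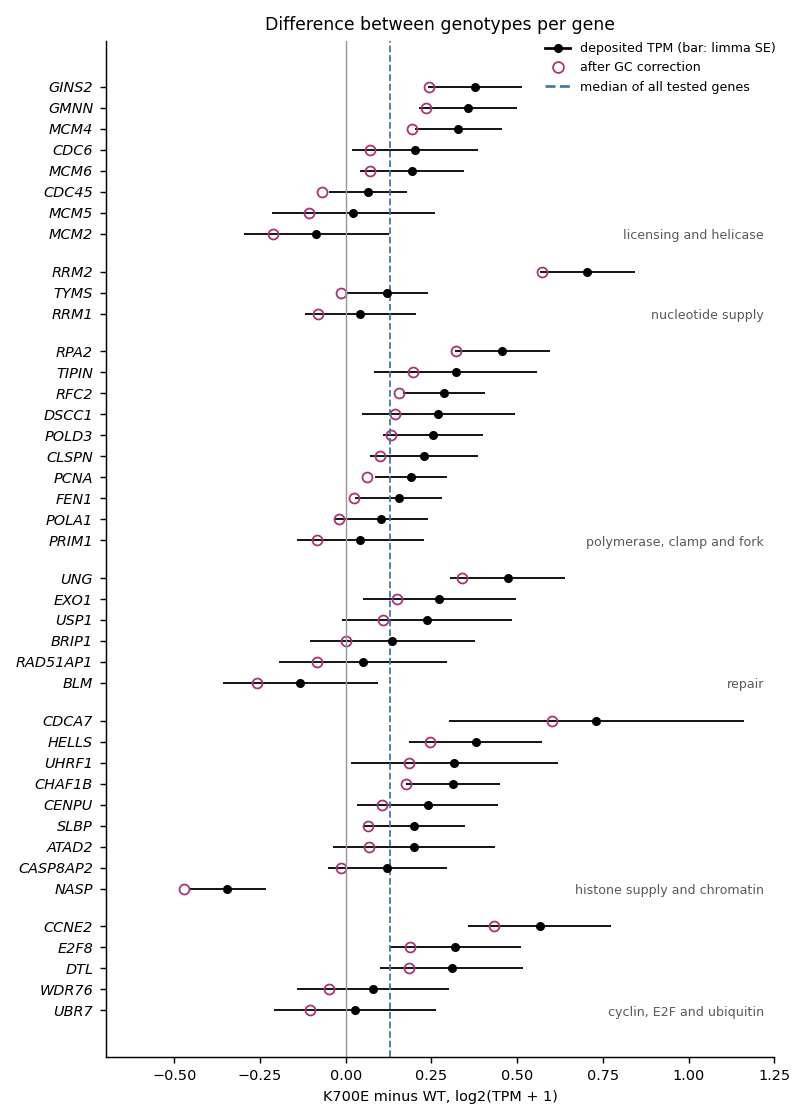
Difference between K700E and WT for each of the 41 genes, in log2(TPM + 1), grouped by role. Filled points are limma estimates with SE bars, open circles the values after GC correction, and the dashed line the median of all tested genes. Estimates run from -0.34 (NASP) to 0.73 (CDCA7), with 38 of 41 above 0.

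**Figure D2:**
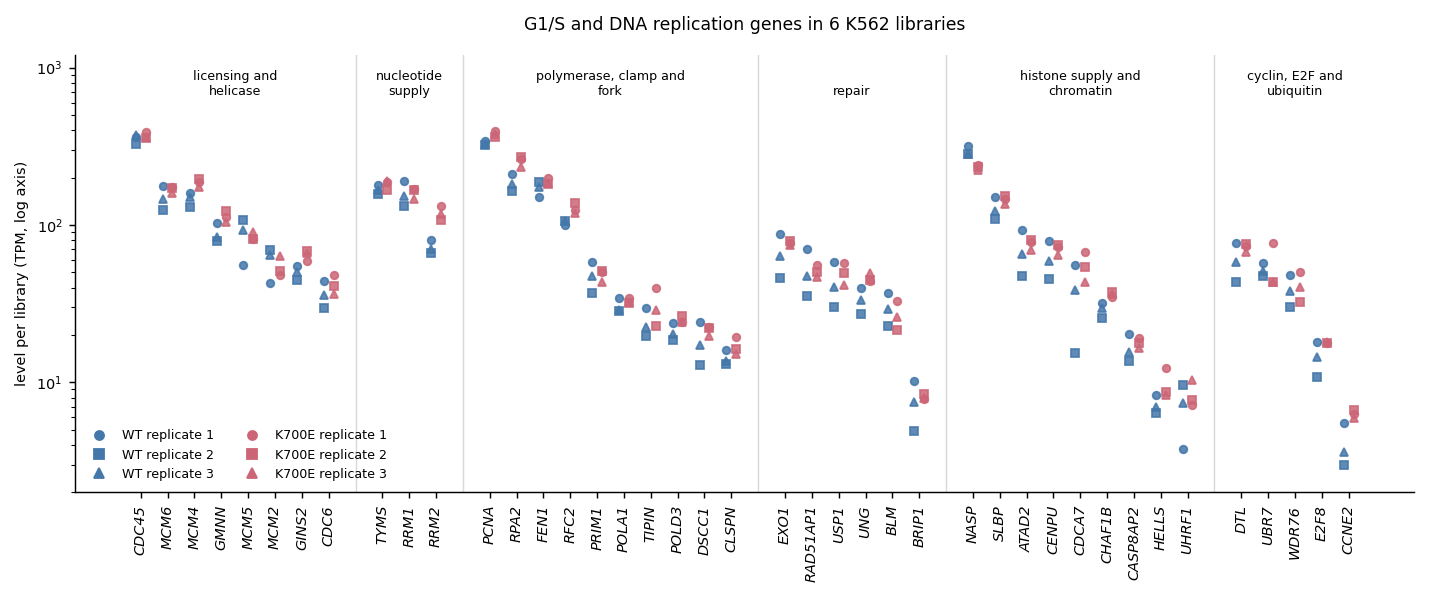
TPM of each of the 41 genes in each of the 6 libraries on a log axis, grouped by role. Levels run from 2.97 TPM for CCNE2 in WT replicate 2 to 389.1 and 393.2 TPM for CDC45 and PCNA in K700E replicate 1, and the WT libraries are spread more widely than the K700E libraries in 33 of 41 genes.

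Nucleotide supply held the gene with the smallest adjusted p of the 41. RRM2, the small subunit of ribonucleotide reductase, which makes deoxynucleotides and whose level limits the enzyme in S phase, measured 80.4, 66.5 and 70.3 TPM in WT against 131.9, 107.3 and 117.0 in K700E. The lowest K700E library lay above the highest WT library. The mean was 72.4 ± 7.18 TPM in WT against 118.7 ± 12.4 in K700E (SD, n = 3 each), a log2 difference of 0.70 with an SE of 0.14 and a limma adjusted p of 0.064. That value missed the threshold, and it passed with the GC correction (0.57, SE 0.08, adjusted p = 0.024, where 3.19% of genes passed), with limma-voom on recovered reads (0.67, adjusted p = 0.0472, 1.72% of genes passing) and without WT replicate 1 (0.78, adjusted p = 0.0491, 1.17% passing). Without WT replicate 3 the RRM2 difference was 0.69 with an adjusted p of 0.318, and no gene of the whole table passed with limma (1462 did at an unadjusted p under 0.05). RPA2, NASP, UNG and GINS2, next in order of p, then had differences of 0.45, -0.37, 0.48 and 0.39 and adjusted p from 0.522 to 0.603. The RRM2 gene lies on chromosome 2, 10260825 to 10350723, plus strand, in the GRCh37 coordinates of the tables.

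RRM1, the large subunit of the same enzyme, measured 189.5, 131.1 and 152.2 TPM in WT against 169.7, 166.2 and 146.6 in K700E. The groups overlapped, and the log2 difference was 0.04 (SE 0.16, adjusted p = 0.922), turning to -0.08 after TMM scaling. The ratio of RRM2 to RRM1 was 0.424, 0.507 and 0.462 in WT and 0.777, 0.646 and 0.798 in K700E, without overlap. TYMS, thymidylate synthase, measured 167.4 ± 10.4 TPM in WT and 182.1 ± 12.5 in K700E (difference 0.12, adjusted p = 0.667), with overlapping libraries. Its exons share 60% of their bases with ENOSF1 on the opposite strand, and the strand setting of the counting is not given in the sources used here, so reads of both genes in those bases cannot be told apart. The median over the 3 nucleotide supply genes was 0.12, which is -0.01 relative to the median gene.

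**Figure D3:**
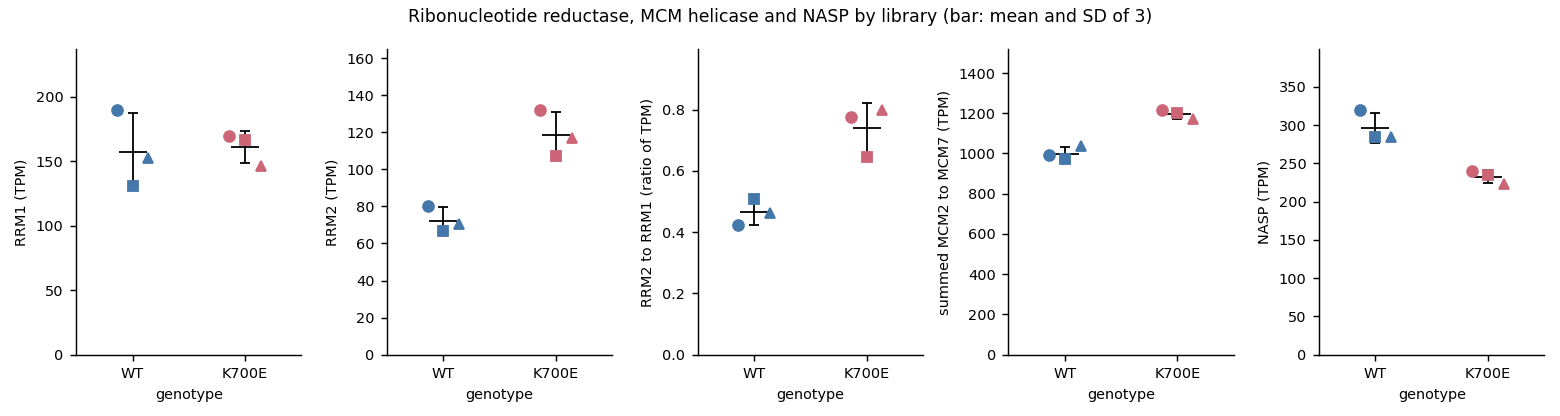
TPM by library in WT and K700E for RRM1, RRM2, summed MCM2 to MCM7 and NASP, and the RRM2 to RRM1 ratio. Bars are the mean and SD of 3 libraries, and circles, squares and triangles are replicates 1, 2 and 3. The K700E libraries of RRM2 sit between 107.3 and 131.9 TPM, above the WT libraries at 66.5 to 80.4, and those of NASP sit between 223.5 and 240.1 TPM, below the WT libraries at 284.5 to 319.1.

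Promoter sequences were looked up because E2F control is the property usually named for these genes. RefSeq entries on GRCh38.p14 were matched for 32 of the 41, as windows from 250 bases before to 50 bases after the gene start. The E2F letters TTTCCCGC, TTTGGCGC, TTTCGCGC and TTTGCCGC were searched on both strands and can overlap one another. At least 1 was present in 16 of the 32 windows (50%), beside 21 of 68 (30.9%) for other replication and G1/S genes, 3 of 43 (6.98%) for G2/M genes, 5.63% of the windows of tested genes and 3.33% of all 27305 windows. The CCAAT letters, searched on both strands, were in 23 of 32 (71.9%), beside 32 of 68 (47.1%) for other replication and G1/S genes, 30 of 43 (69.8%) for G2/M genes and 36.9% for tested genes. Shown are the 250 bases before the start of RRM2 (chr2:10122489-10122738, plus strand), NASP (chr1:45583791-45584040, plus strand), UNG (chr12:109097347-109097596, plus strand) and GINS2 (chr16:85688955-85689204, minus strand), the 4 genes with the smallest adjusted p among those with a promoter entry. MCM6 (chr2:135876444-135876693, minus strand) was added after the matches were seen, as the gene with the most E2F matches. Each reads 5′ to 3′ on the gene's strand, with E2F and CCAAT letters of either strand in capitals.
RRM2: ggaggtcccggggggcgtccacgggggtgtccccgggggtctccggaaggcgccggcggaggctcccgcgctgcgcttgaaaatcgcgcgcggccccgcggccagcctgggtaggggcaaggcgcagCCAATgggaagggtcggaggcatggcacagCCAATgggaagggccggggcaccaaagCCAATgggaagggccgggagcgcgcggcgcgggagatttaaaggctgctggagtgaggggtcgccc
NASP: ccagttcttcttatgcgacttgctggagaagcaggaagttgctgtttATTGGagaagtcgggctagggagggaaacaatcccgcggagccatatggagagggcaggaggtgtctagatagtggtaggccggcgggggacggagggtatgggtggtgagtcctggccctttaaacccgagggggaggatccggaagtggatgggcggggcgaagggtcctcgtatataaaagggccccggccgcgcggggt
UNG: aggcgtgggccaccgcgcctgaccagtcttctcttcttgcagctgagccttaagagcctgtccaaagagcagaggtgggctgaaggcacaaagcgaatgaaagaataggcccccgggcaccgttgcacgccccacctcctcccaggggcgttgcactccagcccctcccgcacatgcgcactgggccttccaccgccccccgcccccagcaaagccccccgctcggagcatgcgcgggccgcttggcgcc
GINS2: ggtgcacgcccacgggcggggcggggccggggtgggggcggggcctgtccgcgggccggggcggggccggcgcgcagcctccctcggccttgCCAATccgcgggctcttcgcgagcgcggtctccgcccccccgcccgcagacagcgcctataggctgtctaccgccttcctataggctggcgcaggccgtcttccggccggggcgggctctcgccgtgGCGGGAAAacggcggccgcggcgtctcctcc
MCM6: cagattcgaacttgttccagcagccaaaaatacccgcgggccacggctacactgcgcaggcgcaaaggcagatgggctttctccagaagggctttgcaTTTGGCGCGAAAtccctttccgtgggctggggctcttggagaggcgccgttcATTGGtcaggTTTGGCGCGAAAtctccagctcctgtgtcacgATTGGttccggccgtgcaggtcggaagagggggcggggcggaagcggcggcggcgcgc
The RRM2 stretch held 3 CCAAT matches, beginning 123, 93 and 66 bases before the start, and no E2F match. The NASP stretch held 1 CCAAT match on the minus strand, and the UNG stretch held neither set of letters in these 250 bases, while its full window held 1 CCAAT match that begins in the last bases shown and runs past the start. GINS2 had 1 E2F match 31 to 24 bases before the start, and MCM6 had 4 overlapping E2F matches in a pair of places. The K700E minus WT difference was 0.19 for MCM6, with the most E2F matches (limma adjusted p = 0.578), and 0.70 for RRM2, with none here. Since 4 of these genes were picked for a small adjusted p and MCM6 for its matches, they cannot show whether differences follow the number of matches. That relation was not tested.

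Licensing and helicase genes had a median difference of 0.20, which is 0.07 relative to the median gene, and 0.191 without WT replicate 1, 0.034 without WT replicate 2 and 0.027 without K700E replicate 1. Of the 8, 3 were separated upward (background 19.0%), 1 after TMM scaling (background 12.1%) and 2 after GC correction (background 15.3%). GINS2, a subunit of the GINS complex of the active helicase, measured 54.7, 44.5 and 50.4 TPM in WT against 59.3, 68.7 and 66.7 in K700E. Every K700E library was above every WT library, with a difference of 0.38 (SE 0.14, adjusted p = 0.236). MCM4, a subunit of the helicase ring, measured 160.2, 131.0 and 151.4 TPM in WT against 186.8, 194.8 and 173.3 in K700E. These did not overlap either, with a difference of 0.33 (SE 0.13, adjusted p = 0.259). GMNN encodes geminin, the inhibitor of the loading factor CDT1, and was separated as well, at 88.5 ± 12.4 TPM in WT and 113.1 ± 8.78 in K700E (0.36, adjusted p = 0.275). After TMM scaling GINS2 and GMNN overlapped between genotypes, and after GC correction GINS2 did, while MCM4 stayed separated on both scales. The GMNN to CDT1 ratio overlapped between genotypes, at 3.058, 0.950 and 1.145 in WT and 3.496, 2.638 and 1.674 in K700E.

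The other ring subunits of the 41 overlapped between genotypes. MCM2 measured 42.7, 68.9 and 64.3 TPM in WT against 48.3, 51.2 and 64.0 in K700E, a difference of -0.09 (SE 0.21, adjusted p = 0.877). MCM5 measured 56.0, 108.2 and 93.3 TPM in WT against 81.3, 81.0 and 89.95 in K700E, with a difference of 0.02 (SE 0.24, adjusted p = 0.974) that turned to -0.10 after TMM scaling and ran from -0.25 to 0.21 as single libraries were left out. In both genes WT replicate 1 was the lowest library of all 6. MCM2 shares 32.4% of its exon bases with an opposite-strand transcript listed at 0.255 TPM in WT and 0.357 in K700E. CDC45 (0.07), MCM6 (0.19) and CDC6 (0.20), the last a loading factor for the ring, overlapped between genotypes, and CDC45 turned to -0.06 after TMM scaling.

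Added together, MCM2 to MCM7 gave 990.0, 971.6 and 1035.3 TPM in WT against 1213.9, 1199.4 and 1171.1 in K700E. The sums did not overlap, nor did they after TMM scaling (1004.7, 1054.0 and 1074.0 against 1114.7, 1169.0 and 1145.9). The means of MCM3 (240.0 against 318.4 TPM), MCM7 (317.8 against 383.8) and MCM4 (147.5 against 185.0) made up most of the gap, MCM3 and MCM7 coming from the wider replication list. The share of MCM5 in the sum was 5.65%, 11.14% and 9.01% in WT and 6.70%, 6.76% and 7.68% in K700E. MCM proteins form a ring with the subunits in equal number, and at the RNA level their shares ranged from 3.98% for MCM2 in K700E replicate 1 to 33.56% for MCM7 in the same library.

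Polymerase, clamp and fork genes had a median difference of 0.24, or 0.11 relative to the median gene, and 4 of the 10 were separated upward (background 19.0%), 2 after TMM scaling (background 12.1%) and 3 after GC correction (background 15.3%). RPA2, a subunit of the RPA complex that coats single-stranded DNA, measured 211.6, 163.4 and 182.3 TPM in WT against 261.9, 269.5 and 231.9 in K700E. All K700E libraries were higher, at 254.4 ± 19.9 against 185.8 ± 24.2 TPM, with a difference of 0.46 (SE 0.14, adjusted p = 0.169). RFC2, a subunit of the clamp loader, measured 100.2, 105.8 and 105.9 TPM in WT against 123.8, 138.7 and 119.1 in K700E (0.29, adjusted p = 0.288). PCNA, the sliding clamp, measured 343.4, 324.3 and 324.7 TPM in WT against 393.2, 361.5 and 378.3 in K700E (0.19, adjusted p = 0.426). POLD3, an accessory subunit of DNA polymerase delta, was the fourth, at 20.9 ± 2.71 and 25.0 ± 1.34 TPM (0.25, adjusted p = 0.439).

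Each of the other 6 overlapped between genotypes as deposited. After GC correction CLSPN was separated upward, while PCNA and POLD3 no longer were. PRIM1, the primase catalytic subunit, had the smallest difference, 0.04 (SE 0.18, adjusted p = 0.933), and POLA1, the catalytic subunit of polymerase alpha, had 0.10 (adjusted p = 0.754). Both turned negative after TMM scaling, to -0.08 for PRIM1 and -0.02 for POLA1. FEN1, the flap nuclease of Okazaki fragments, had 0.15, the checkpoint mediator CLSPN 0.23, DSCC1 of the alternative clamp loader 0.27 and the fork protection factor TIPIN 0.32, with adjusted p from 0.524 to 0.598.

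Among repair genes the median difference was 0.19 (0.06 relative to the median gene). The relative median was -0.156 without WT replicate 2 and 0.278 without WT replicate 1. Of the 6, 1 was separated upward (background 19.0%), and none after GC correction (background 15.3%). UNG, the uracil DNA glycosylase that removes uracil from new DNA, measured 39.5, 27.0 and 33.2 TPM in WT against 43.9, 44.4 and 49.8 in K700E. The lowest K700E library was above the highest WT library, with a difference of 0.47 (SE 0.17, adjusted p = 0.226). BLM, a RecQ helicase that dissolves recombination intermediates, measured 37.2, 22.8 and 29.03 TPM in WT against 33.1, 21.5 and 26.0 in K700E. Those groups overlapped (-0.13, SE 0.23, adjusted p = 0.814), and the difference was 0.038 without WT replicate 1 and -0.30 without WT replicate 2.

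The repair genes had the widest WT spread of any role, with a median SD of 0.46 on the log2 scale over the WT libraries and 0.12 over the K700E libraries. EXO1, a mismatch repair exonuclease, measured 87.3, 45.9 and 63.7 TPM in WT against 76.5, 79.7 and 74.6 in K700E. RAD51AP1, a DNA-binding repair protein, measured 70.8, 35.1 and 47.4 TPM in WT against 56.0, 50.5 and 46.5 in K700E. In both the K700E libraries lay inside the WT range, so the genotype difference was smaller than the spread within WT. That difference was 0.27 for EXO1 and 0.05 for RAD51AP1 (SE 0.25, adjusted p = 0.942). BRIP1, a helicase partner of BRCA1 (0.14), and USP1, which deubiquitinates PCNA (0.24), also overlapped.

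Histone supply and chromatin genes held both extremes of the whole set, around a median of 0.24 (0.11 relative to the median gene). The relative median was -0.006 without WT replicate 2 and 0.239 without WT replicate 1. NASP, a chaperone that keeps a soluble reserve of histones H3 and H4, measured 319.1, 284.5 and 284.5 TPM in WT against 240.1, 234.1 and 223.5 in K700E. Every K700E library was below every WT library, at 232.6 ± 8.40 against 296.0 ± 19.99 TPM, with a difference of -0.34 (SE 0.11, adjusted p = 0.194). With the GC correction, where 3.19% of genes passed, the NASP difference was -0.47 (SE 0.08) and passed, at a limma adjusted p of 0.0321. With the same correction but without WT replicate 3 the adjusted p was 0.172. The NASP gene spans chromosome 1, 46049660 to 46084576, plus strand, in GRCh37. Its direction was the same in every alternative computed.

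CDCA7, a cofactor of the remodeler HELLS, measured 55.7, 15.3 and 38.5 TPM in WT against 67.1, 54.2 and 43.2 in K700E. The difference was the highest of the 41 at 0.73, but with an SE of 0.43 (adjusted p = 0.451) and overlapping libraries, and WT replicate 2 was far under the other 5. HELLS itself measured 8.28, 6.38 and 6.92 TPM in WT against 12.3, 8.71 and 8.24 in K700E (0.38, adjusted p = 0.384), the WT range reaching past the lowest K700E library. CHAF1B, a subunit of the histone chaperone CAF-1, was separated upward at 29.2 ± 3.204 against 36.3 ± 1.43 TPM (0.31, adjusted p = 0.314). It was the only 1 of the 9 genes separated upward (11.1%, background 19.0%), and it overlapped after TMM scaling and after GC correction. SLBP, which binds the stem-loop of histone mRNAs, had 0.20, CASP8AP2, needed for histone gene expression, 0.12, and the centromere protein CENPU 0.24. ATAD2, a chromatin ATPase, had 0.20, and UHRF1, which brings maintenance methylation to hemimethylated DNA, had 0.32, and single left-out libraries took ATAD2 to -0.04 and UHRF1 to -0.01.

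The 5 cyclin, E2F and ubiquitin genes had a median difference of 0.31 (0.18 relative to the median gene), which became -0.005 relative to the median gene without WT replicate 2 and 0.345 without WT replicate 1. CCNE2, cyclin E2, which activates CDK2 at the G1/S boundary, measured 5.53, 2.97 and 3.58 TPM in WT against 6.31, 6.65 and 5.90 in K700E. The groups did not overlap, though WT replicate 1 came close to the lowest K700E library, and the difference was 0.57 (SE 0.21, adjusted p = 0.240). CCNE2 shares 47.5% of its exon bases with INTS8 on the opposite strand, which was measured at 45.1 TPM in WT and 53.1 in K700E, and without the strand setting reads of both genes in those bases cannot be told apart. The ratio of CCNE2 to CCNE1 overlapped, at 0.135, 0.112 and 0.096 in WT and 0.139, 0.147 and 0.119 in K700E.

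E2F8, a repressor that closes the E2F program, measured 18.02, 10.8 and 14.4 TPM in WT against 17.8, 17.7 and 18.02 in K700E (0.32, adjusted p = 0.463). WT replicate 1 was level with the K700E libraries and the other WT libraries were lower. DTL, the substrate receptor that directs CDT1 for degradation in S phase, had 0.31 and overlapping libraries. WDR76 (0.08) and UBR7 (0.03) overlapped too and turned to -0.04 and -0.10 after TMM scaling, and UBR7 was highest in K700E replicate 1, at 77.2 TPM against 43.3 and 43.6 in the other K700E libraries.

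Within WT, the replication genes followed a common order. WT replicate 1 was highest and WT replicate 2 lowest in 35 of 41 genes (85.4%), beside 43.6% of all genes tested, and the reverse order held in 4 (9.8%), beside 32.3%. The same order was found in 43 of 50 G2/M genes (86.0%). WT replicate 3 lay in the middle in 39 of 41 genes (95.1%), beside 75.9% of all genes. With each gene centred over the 6 libraries and taken relative to the median gene of each library, the median replication gene stood at 0.17, -0.22 and -0.08 in the WT libraries and at 0.04, 0.08 and 0.01 in the K700E libraries, and WT replicate 1 stood above and the other WT libraries below every K700E library. In 32 of the 41 genes (78.0%) the range within WT exceeded the genotype difference, beside 73.3% of all genes. The WT SD exceeded the K700E SD in 33 of 41 (80.5%), beside 59.6% of all genes, with median SDs of 0.27 and 0.10 on the log2 scale.

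**Figure D4:**
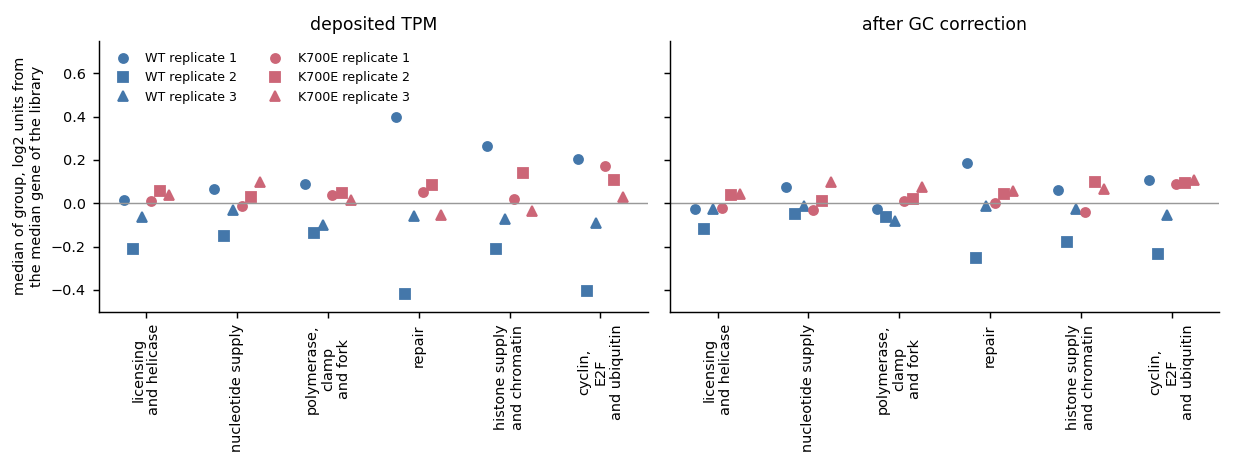
Median level of each role group in each library, in log2 units with each gene centred over the 6 libraries and relative to the median gene of the library, as deposited (left) and after GC correction (right). On the left, WT replicate 1 is the highest WT library and WT replicate 2 the lowest, with the widest gap for repair genes (0.40 against -0.42), and the K700E libraries lie closer together.

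That order moved with the base composition of the genes. The 35 genes highest in WT replicate 1 had a GC content in their longest transcript of 36.1% to 50.7%. The 5 genes lowest in WT replicate 1, MCM2, MCM5, FEN1, RFC2 and UHRF1, had 53.6% to 58.1%, and CDC45, at 51.4%, had WT replicate 1 in the middle. Across the 41 genes, which share the same libraries, Pearson's r between GC content and the log2 ratio of WT replicate 1 to WT replicate 2 was -0.78, and across 15129 genes with a GC value it was -0.70. Over all genes, WT replicate 1 was the highest WT library in 91.4% of genes under 40% GC and in 6.3% of genes at 55% or more. The K700E minus WT difference had no such relation, with r of -0.09 over the 41 genes and -0.02 over all. After GC correction, the order with WT replicate 1 highest and replicate 2 lowest held in 25 of 41 genes (61.0%), beside 35.4% of all genes. Among the G2/M genes it held in 46 of 50 (92.0%) after GC correction, beside 86.0% as deposited. The part of GC content in the genotype differences was not tested beyond that correction.

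**Figure D5:**
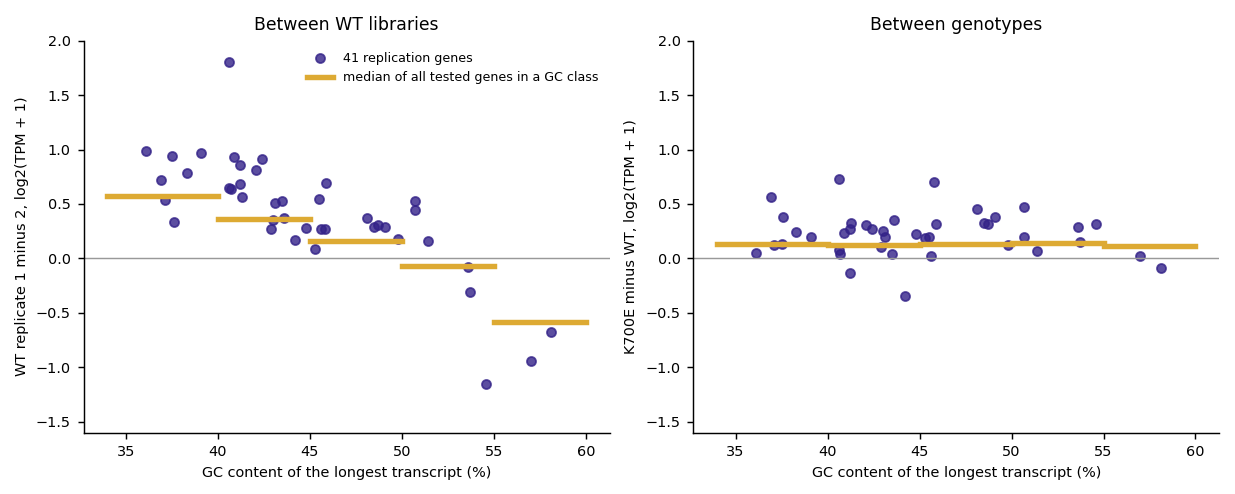
Difference of WT replicates 1 and 2 (left) and of K700E and WT (right), in log2(TPM + 1), against transcript GC content in percent, for the 41 genes (points) and as the median of all tested genes in each GC class (lines). On the left, genes under 45% GC lie above 0 and MCM2, MCM5 and UHRF1 lie lowest, while on the right the lines stay between 0.115 and 0.138.

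Of the 80 other genes of replication and G1/S control, none passed the adjusted threshold. At an unadjusted p under 0.05, 9 (11.2%) were higher and none lower, beside 13% and 3.52% of all genes. In 15 (18.8%, background 19.0%) every K700E library was above every WT library. The median difference of the 80 genes was 0.17, which is 0.043 relative to the median gene. E2F2, an activator of G1/S transcription, measured 16.6, 14.4 and 17.1 TPM in WT against 23.3, 24.5 and 25.6 in K700E (0.58, adjusted p = 0.10). GINS3, a partner of GINS2, had 0.54 (adjusted p = 0.132). MCM3 measured 260.3, 216.6 and 243.1 TPM in WT against 316.0, 333.0 and 306.2 in K700E (0.41, adjusted p = 0.156). The lower differences with the smallest adjusted p were those of SKP2, the ubiquitin ligase subunit for the CDK inhibitor p27 (-0.34, 0.515), TICRR, which helps to fire origins (-0.24, 0.635), and the loading factor CDT1 (-0.37, 0.673).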

How the data were processed

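The mRNA libraries of 3 WT and 3 K700E samples were deposited by the authors as TPM per gene, in a separate table for each genotype with the same gene lengths. Trimming by cutadapt 2.10, TopHat2 2.1, counting by featureCounts 2.0.1, the tool DESeq2 and the build GRCh37 (hg19) are listed in the submitters' processing notes. The WT column names follow the naming of another aligner, so the aligner of that table is not settled. The strand setting is not given in the sources used here. TPM is scaled within each library, so a few abundant RNAs can shift all other genes.

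Gene IDs were paired with symbols by a supplied table (58561 of 62111, 94.3%). Genes whose mean reached 1 TPM were fitted as log2(TPM + 1) on genotype with limma 3.58.1 (trend, R 4.3.3) and p-values were adjusted over all 15493 by Benjamini-Hochberg at 0.05. The script was tested on simulated data. Whole reads were recovered from TPM and gene length (100% of values within 0.01 of a whole read), and 381 of 22158 genes passed in limma-voom on them. GC content came from the longest GENCODE v29 transcript of each gene (97.7% of tested genes), and a loess fit per library was the GC correction. Full statistics were given for the 4 genes with the smallest adjusted p in each direction of the mean, for any passing an alternative, and for the extremes of each role. The 41 genes, the other lists and this rule were chosen with earlier results of these data known. The alternatives were fixed in advance except the GC correction without WT replicate 3. Exon overlaps came from the deposited exon coordinates of the genes, on GRCh37.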

Additional observations from a re-analysis of the deposited data

How the results depend on the processing

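Of the 41 genes, 26 kept their direction in every alternative and 15 reversed in at least 1. Genes called numbered 2 with GC correction (RRM2 and NASP), 1 with limma-voom (RRM2), 0 to 1 as single libraries were left out (1 without WT replicate 1), and 0 otherwise, including GC correction without WT replicate 3, an alternative chosen after seeing the data. Over all genes, calls numbered 214 as reported, 482 with GC correction, 381 with limma-voom, 92 at a minimum mean of 5 TPM, 125 without WT replicate 2, 0 without WT replicate 3, 98, 84 and 129 without K700E replicates 1, 2 and 3, and 0 with no filter (4891 at an unadjusted p under 0.05). Relative to the median gene, the role medians that moved by more than the spread between libraries were those with no filter (licensing 0.166, nucleotide supply 0.089, polymerase 0.210) and, leaving out single libraries, licensing (0.027 to 0.191). The other role medians ranged on leaving out single libraries from -0.156 to 0.278 (repair), -0.005 to 0.345 (cyclin, E2F and ubiquitin), -0.006 to 0.239 (histone supply and chromatin), -0.034 to 0.043 (nucleotide supply) and 0.04 to 0.147 (polymerase), each end of the first 3 coming from leaving out WT replicate 2 or 1. The cause was not tested.

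The median gene lay at 0.13 as deposited and at 0.01 after TMM scaling, and genes with small positive differences changed sign under scalings of that kind. With TMM the reversed values were MCM5 -0.104, CDC45 -0.062, RRM1 -0.084, TYMS -0.007, PRIM1 -0.082, POLA1 -0.019, RAD51AP1 -0.075, WDR76 -0.045 and UBR7 -0.099. With median-ratio scaling they were MCM5 -0.120, CDC45 -0.078, RRM1 -0.101, TYMS -0.023, PRIM1 -0.099, POLA1 -0.035, RAD51AP1 -0.091, CASP8AP2 -0.015, WDR76 -0.062 and UBR7 -0.115. With GC correction, alone or with the replicate block, they were MCM5 -0.108, CDC45 -0.068, RRM1 -0.081, TYMS -0.014, PRIM1 -0.085, POLA1 -0.019, RAD51AP1 -0.084, CASP8AP2 -0.013, WDR76 -0.049 and UBR7 -0.104. With GC correction without WT replicate 3 they were MCM5 -0.066, CDC45 -0.044, RRM1 -0.091, TYMS -0.029, PRIM1 -0.066, POLA1 -0.051, RAD51AP1 -0.097, CASP8AP2 -0.028, WDR76 -0.038 and UBR7 -0.114. With limma-voom they were MCM5 -0.033 and UBR7 -0.022. Leaving out single libraries gave ranges across 0 for MCM2 (-0.295 to 0.044), MCM5 (-0.255 to 0.214), RRM1 (-0.081 to 0.183), PRIM1 (-0.123 to 0.198), BLM (-0.301 to 0.038), BRIP1 (-0.11 to 0.358), RAD51AP1 (-0.185 to 0.31), UHRF1 (-0.012 to 0.564), ATAD2 (-0.04 to 0.443), WDR76 (-0.084 to 0.24) and UBR7 (-0.245 to 0.165).

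Replicate numbers did not pair all libraries: deviations of same-numbered libraries correlated at 0.281, -0.192 and 0.299. With the replicate block 0 of the 41 and 67 of all genes passed, RRM2 having an adjusted p of 0.0923, and with the block and GC correction 0.0691. WT replicates 1 and 3 correlated best with the K700E library of their own number, and WT replicate 2 with K700E replicate 3 (0.428).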

Other observations

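Genes of the G2/M phase, which act after replication, were measured as a neighbouring stage of the cycle. Of 51 listed, 50 reached a mean of 1 TPM. None passed the adjusted threshold, and their median difference was 0.01, which is -0.12 relative to the median gene, beside 0.10 for the 41 replication genes. Every K700E library was above every WT library in 0 of the 50 (background 19.0%), and below in 2 (background 4.99%). These 2, UBE2C (1.32 TPM in WT and 1.05 in K700E, near the filter of 1 TPM) and GTSE1, were named after their values were seen. After TMM scaling, 0 were above (background 12.1%) and 5 below (background 9.19%), and after GC correction 1 was above (background 15.3%) and 6 below (background 13.7%). The difference between both lists was not tested.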
